A study of Sus scrofa with 18 samples.

Results

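The core glycolytic enzymes of muscle comprise the 10 genes GPI, PFKM, ALDOA, TPI1, GAPDH, PGK1, PGAM2, ENO3, PKM and LDHA, which were followed in gastrocnemius muscle of growing pigs fed insect meal. Members were the probe sets whose only gene name in the array annotation is 1 of these genes. A probe set is a group of short probes that together measure 1 transcript. Of the 25388 probe sets, 8 met this rule, 1 each for GPI, TPI1, GAPDH, PGK1, PGAM2, ENO3, PKM and LDHA. For the other 2 genes, PFKM (the phosphofructokinase of muscle) and ALDOA (the aldolase of muscle), no probe set carried the name or the gene record in the annotation used, and they were not analysed here.

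The study asked how replacing soybean extraction meal by insect meal from Tenebrio molitor, the yellow mealworm, affects the metabolism of growing pigs. The diet of group CON contained 0% insect meal. That of group IM5 contained 5% (replacing 50% of the soybean extraction meal) and that of group IM10 contained 10% (replacing 100%). Each replacement kept the nitrogen content equal. Cellulose was added to the diets of groups IM5 and IM10, more of it in IM10, and plant oils and free amino acids were adjusted. Insect meal and these other changes of the diet cannot be told apart in the group differences. All animals were male crosses of Piétrain with German Landrace × German Edelschwein, 5 weeks old at the start, fed their diet for 4 weeks and killed in the fed state. Each group of the trial held 10 pigs, of which 6 per group were taken at random for the arrays, so that 18 arrays of 18 single pigs were compared. Pigs shared pens, but the labels do not say which pigs lived together, and each pig was treated as independent.

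Glycolysis breaks glucose down to pyruvate in the cytosol and yields ATP without oxygen. In skeletal muscle its glucose 6-phosphate comes from blood glucose and from stored glycogen, and lactate dehydrogenase turns pyruvate into lactate during intense work. Fast-twitch fibres rely on this pathway and hold much of its enzymes, whereas slow-twitch fibres rely on oxidation in mitochondria.

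The values are log2 expression values, so that a difference of 1 is a doubling of signal. The 18 arrays had medians of 4.91 to 5.00 and were correlated with each other at 0.978 to 0.991. IM10 replicate 2 stood farthest from the others, with a mean correlation of 0.981. The muscle markers ACTA1, MYH1 and MYLPF lay above at least 99.8% of probe sets. In a piece of whole muscle, fewer fibres of a type and less mRNA per fibre cannot be told apart.

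None of the 8 enzymes differed between the groups beyond the spread between pigs. The mean of group IM10 was below that of group CON for 7 of the 8 enzymes, by log2 differences between -0.23 (PGAM2) and -0.10 (LDHA), and GAPDH differed by 0.03. The mean of group IM5 was below that of group CON for 8 of 8, by differences between -0.15 (PGAM2) and -0.037 (GAPDH). The values of the groups overlapped for every enzyme in all 3 comparisons.

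**Figure D1:**
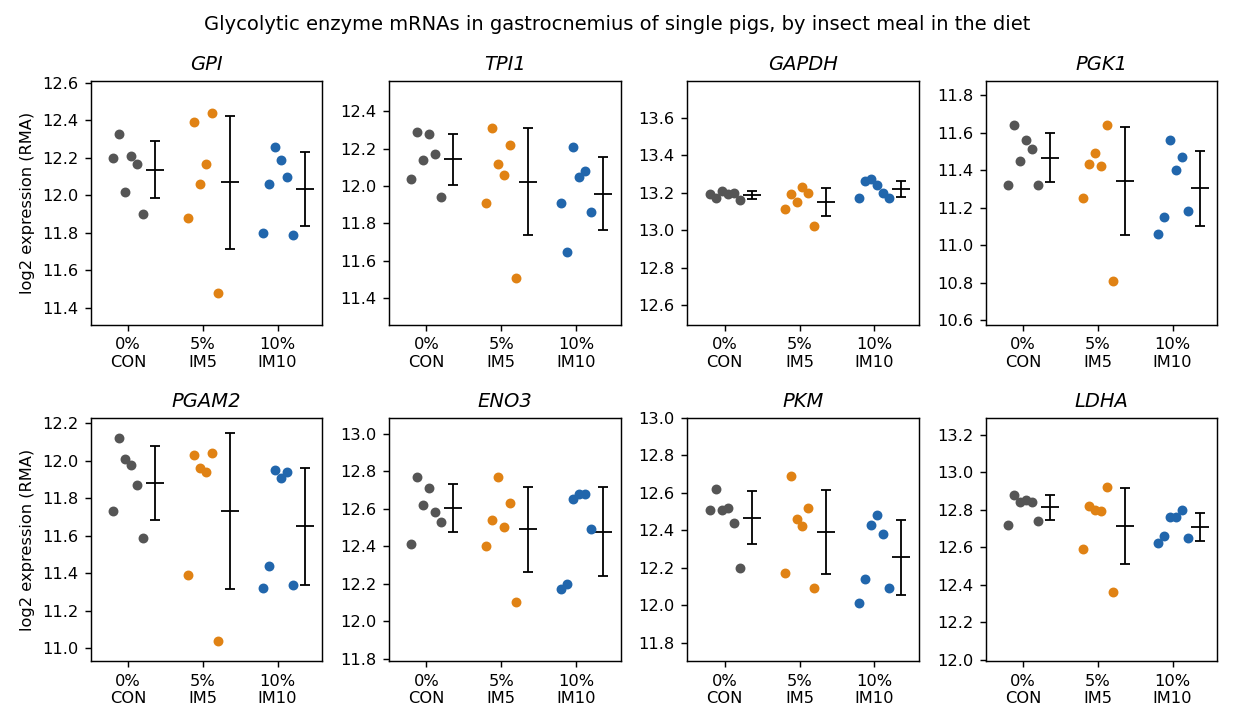
Log2 expression of the 8 enzymes in each pig, with 1 panel per gene and the groups in order of insect meal in the diet (0, 5 and 10%). Points are single pigs, in order of replicate number, the black dash and bars are the mean ± SD of 6 pigs, and all panels span the same width in log2 units: GAPDH stays within a range of 0.25 over the 18 pigs, whereas PGAM2 covers 1.08.

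GPI, the isomerase that turns glucose 6-phosphate into fructose 6-phosphate, had lowest, median and highest values of 11.90, 12.19 and 12.33 in CON pigs, 11.48, 12.12 and 12.44 in IM5 pigs, and 11.79, 12.08 and 12.26 in IM10 pigs. Both its lowest value (IM5 replicate 6) and its highest (IM5 replicate 5) belonged to group IM5. The differences were -0.11 ± 0.14 (SE) for IM10 against CON and -0.068 ± 0.14 for IM5 against CON.

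TPI1 keeps the pair of triose phosphates made by aldolase in equilibrium. Its lowest, median and highest values were 11.94, 12.16 and 12.29 in CON pigs, 11.51, 12.09 and 12.31 in IM5 pigs, and 11.65, 11.98 and 12.21 in IM10 pigs. In group IM10, 5 of 6 pigs lay below the mean of group CON, and IM10 replicate 2 was the lowest of them. The difference between IM10 and CON was -0.18, with a 95% interval of -0.43 to 0.066.

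GAPDH makes the first high-energy phosphate of the pathway and NADH. It had lowest, median and highest values of 13.16, 13.19 and 13.21 in CON pigs, 13.02, 13.17 and 13.23 in IM5 pigs, and 13.17, 13.22 and 13.27 in IM10 pigs. It was the only enzyme whose mean was higher in IM10 than in CON, by 0.032 with a 95% interval of -0.095 to 0.16. GAPDH was also one of the reference genes of the study's qPCR in muscle. Its primers are shown because the array bears on the use of this gene as a reference.
GAPDH primer 1: gtcggagtgaacggatttgg
GAPDH primer 2: tggaagatggtgatggcctt
Its SD within groups was 0.052, and 11 of the 25388 probe sets had a smaller one. Its signal also lay near the top of the scale, within 0.18 to 0.48 of the highest value of each array. All 11 were among the 104 brightest probe sets, whose median SD was 0.13, beside 0.19 for all probe sets, and whether the upper end of the scale narrowed the spread of GAPDH was not tested. ATP5G1, a subunit gene of the mitochondrial ATP synthase, was the other muscle reference gene found by name. Its difference between IM10 and CON was -0.095 ± 0.18 (SE).

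PGK1 transfers the phosphate of 1,3-bisphosphoglycerate to ADP. Its lowest, median and highest values were 11.32, 11.48 and 11.64 in CON pigs, 10.81, 11.43 and 11.64 in IM5 pigs, and 11.06, 11.29 and 11.56 in IM10 pigs. The pigs IM10 replicates 1, 2 and 6 lay below all pigs of group CON, whereas IM10 replicates 3, 4 and 5 lay within their range. The difference between IM10 and CON was -0.16, with a 95% interval of -0.41 to 0.087.

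PGAM2 is the muscle form of phosphoglycerate mutase. It showed lowest, median and highest values of 11.59, 11.93 and 12.12 in CON pigs, 11.04, 11.95 and 12.04 in IM5 pigs, and 11.32, 11.68 and 11.95 in IM10 pigs. In group IM10, replicates 1, 2 and 6 had 11.32, 11.44 and 11.34, below all pigs of group CON, while replicates 3, 4 and 5 had 11.95, 11.91 and 11.94. The 2 lowest pigs of group IM5 were replicates 6 and 1, with 11.04 and 11.39. The difference between IM10 and CON was the largest of the 8 enzymes at -0.23, or 0.851 times the signal, with a 95% interval of -0.58 to 0.12.

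ENO3 is the muscle form of enolase and makes phosphoenolpyruvate. It had lowest, median and highest values of 12.41, 12.60 and 12.77 in CON pigs, 12.10, 12.52 and 12.77 in IM5 pigs, and 12.17, 12.57 and 12.68 in IM10 pigs. In group IM10 replicates 1 and 2 were low at 12.17 and 12.20, and the other 4 pigs lay within the range of group CON. The difference between IM10 and CON was -0.13, with a 95% interval of -0.36 to 0.11.

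PKM is the pyruvate kinase gene of muscle, and its splice forms were not told apart here. Its lowest, median and highest values were 12.20, 12.51 and 12.62 in CON pigs, 12.09, 12.44 and 12.69 in IM5 pigs, and 12.01, 12.26 and 12.48 in IM10 pigs. In group IM10, 5 of 6 pigs lay below the mean of group CON, and CON replicate 6 was low at 12.20. The difference between IM10 and CON was -0.21, or 0.864 times the signal, with a 95% interval of -0.44 to 0.017 and an adjusted p of 0.991 in limma.

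LDHA is the lactate dehydrogenase subunit that prevails in fast muscle. It had lowest, median and highest values of 12.72, 12.84 and 12.88 in CON pigs, 12.36, 12.80 and 12.92 in IM5 pigs, and 12.62, 12.71 and 12.80 in IM10 pigs. In group IM10, 6 of 6 pigs had less LDHA than the mean of group CON (12.81 ± 0.065, SD, n = 6), although the ranges overlapped. The difference between IM10 and CON was -0.10, with a 95% interval of -0.28 to 0.074. With an SD within groups of 0.13, LDHA was the most even of the 8 enzymes after GAPDH. Of the 104 brightest probe sets, 51 had a smaller SD than LDHA. The signal of LDHA lay 0.57 to 1.14 below the highest value of each array, and whether this narrowed its spread was not tested.

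Calls were made with limma, a linear model that shares information on spread between probe sets, and needed both an unadjusted P under 0.05 and a change of more than 1.2-fold. In IM10 against CON, 0 of 8 enzymes were called, where 2.29% of all probe sets were, and 0 of 8 had a P under 0.05, where 4.38% did. An adjusted p under 0.05 was reached by 0 of 8, and by 0.00394% of all probe sets. By the methods' t-test, which uses the pigs of both groups alone, 1 of 8 enzymes had a P under 0.05, namely LDHA, with a fold change under 1.2 and an adjusted p of 0.990.

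In IM5 against CON, 0 of 8 enzymes were called (2.10% of all probe sets), 0 of 8 had a P under 0.05 (3.70%) and 0 of 8 had an adjusted p under 0.05 (0%). In IM10 against IM5 these counts were 0 of 8 (2.75%), 0 of 8 (5.22%) and 0 of 8 (0%). No enzyme had a P under 0.05 by the methods' t-test in either of these comparisons. Adjusted p-values of the enzymes in limma lay between 0.938 and 0.998 over the 3 comparisons.

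**Figure D2:**
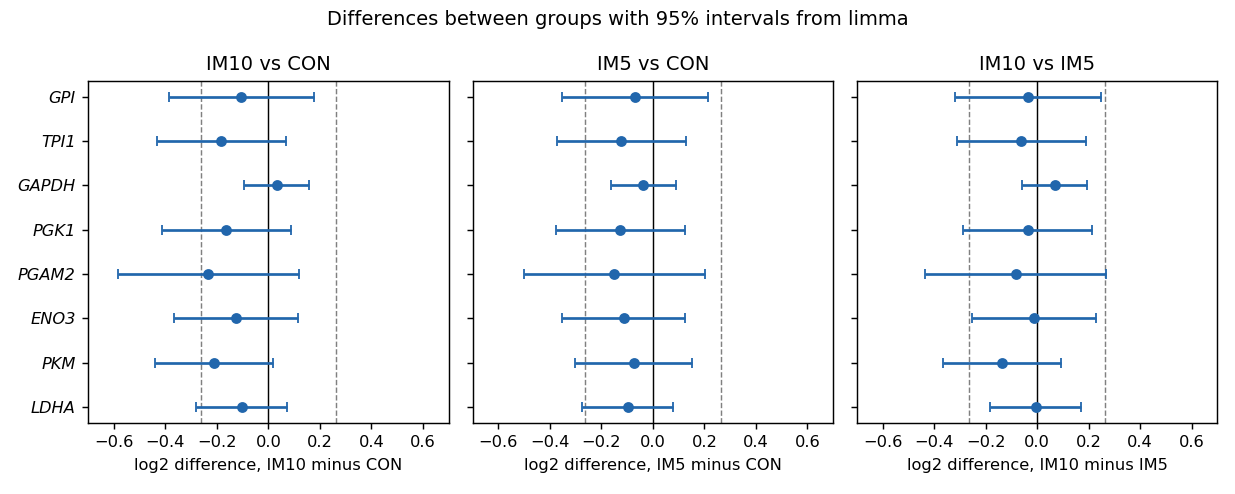
Log2 differences of the 8 enzymes in IM10 against CON, IM5 against CON and IM10 against IM5, with 95% intervals from limma (n = 6 pigs per group). Dashed lines mark a fold change of 1.2 in either direction, and all intervals cross 0.

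The median difference of the 8 enzymes was -0.14 in IM10 against CON, -0.11 in IM5 against CON and -0.037 in IM10 against IM5, while the median of all probe sets was -0.0017, 0 and -0.0033. These comparisons share groups of pigs and are not independent of each other. The intervals did not reach a log2 difference of 0.59 in either direction for any enzyme, and larger differences were outside them. Means lay in the order CON, IM5, IM10 from high to low for 7 enzymes, and in the order IM10, CON, IM5 for GAPDH. Neighbours in these orders did not reach a P under 0.05 in limma. The enzymes varied together over the same pigs, so that the shared order is not 7 separate results.

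Much of the difference in group IM5 rested on 1 pig. Without IM5 replicate 6, the median difference of the 8 enzymes in IM5 against CON was -0.017. Without CON replicate 6, PKM alone was called in IM10 against CON, at a difference of -0.27.

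The enzymes varied together from pig to pig. Over the 18 pigs their values spanned between 0.25 (GAPDH) and 1.08 (PGAM2), and 0.56 to 0.96 for the other 6 enzymes, while the group differences had sizes up to 0.23. IM5 replicate 6 had the lowest value of the 18 pigs for 7 of the 8 enzymes, and its mean deviation from the mean of the 18 pigs was -0.46. The lowest value of PKM, 12.01, belonged to IM10 replicate 1. CON replicate 2 stood at the other end with a mean deviation of 0.22.

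In group IM10 the pigs lay on both sides of the mean of the 18 pigs. Replicates 1, 2 and 6 had mean deviations of -0.25, -0.19 and -0.19, and replicates 3, 4 and 5 had 0.13, 0.080 and 0.072. In group CON, replicate 6 was the lowest at -0.087, and in group IM5 replicates 6 and 1 were below 0, replicate 1 at -0.17.

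**Figure D3:**
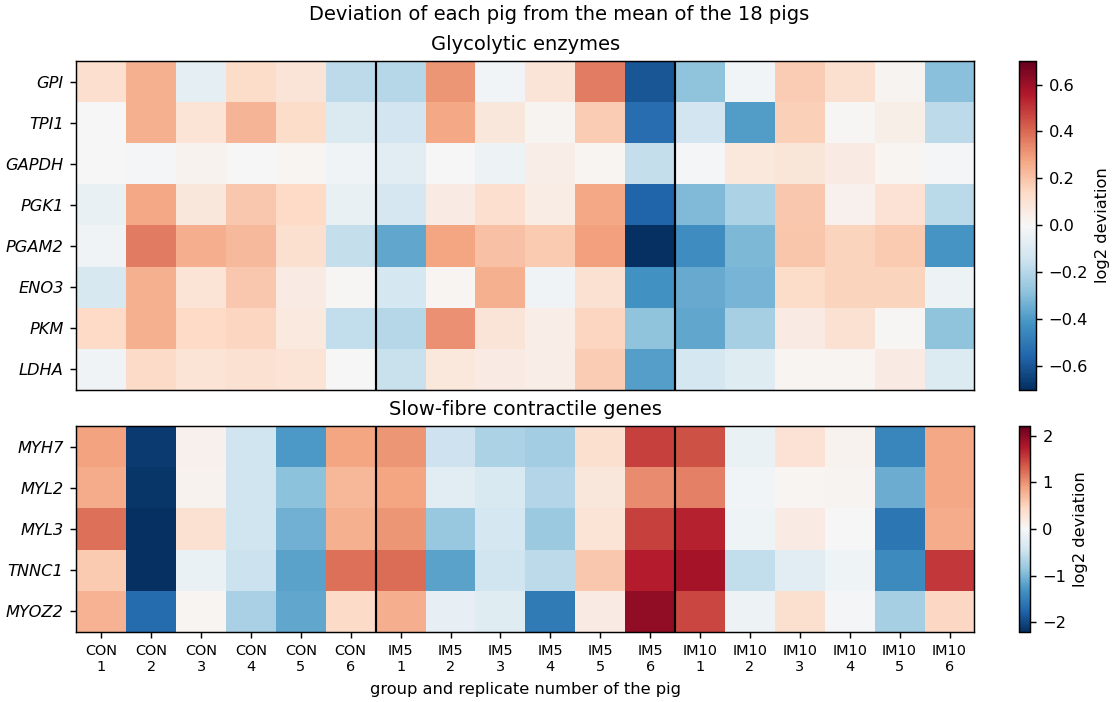
Deviation of each pig from the mean of the 18 pigs, in log2 units, for the 8 glycolytic enzymes (upper panel) and for 5 slow-fibre contractile genes (lower panel, with a wider colour scale). Columns are pigs, split by group in order of insect meal in the diet: IM5 replicate 6 and IM10 replicate 1 are low in the upper panel and high in the lower one, and CON replicate 2 is the reverse.

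After removal of the group means, all 28 pairs of enzymes had a positive correlation over the 18 pigs, with a median Pearson r of 0.84 (0.47 to 0.94) and a median Spearman rho of 0.82. Over all pairs of probe sets with 1 gene name, most of them dimmer than the enzymes, the median r was 0.00. Pairs of like brightness were not compared. The closest pairs joined PGK1 with PGAM2 and PGK1 with LDHA, and the loosest joined GAPDH with ENO3 (r = 0.47). Pairs with GAPDH had a median r of 0.72, against 0.88 for the 21 pairs without it.

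Without IM5 replicate 6, the lowest pig, all 28 pairs kept an r above 0 and the median r was 0.79. Pairs with GAPDH then had a median r of 0.58, and GAPDH with ENO3 fell to 0.21. Without the 2 pigs farthest from the median of the first enzyme of each pair, the median r of the 28 pairs was 0.74. Within single groups of 6 pigs the median r was 0.74 among CON pigs, 0.92 among IM5 pigs and 0.84 among IM10 pigs. These correlations are a description over values that share the same extracts, arrays and normalization.

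**Figure D4:**
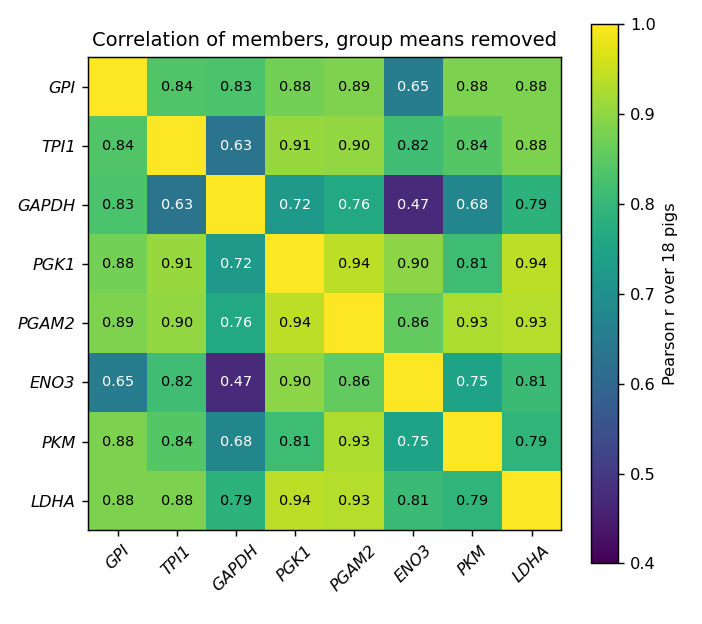
Pearson r between each pair of the 8 enzymes over 18 pigs, after the mean of each group was removed. All values lie above 0, from 0.47 (GAPDH with ENO3) to 0.94.

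The probe sets whose pattern over the 18 pigs was most like the mean of the 8 enzymes included genes of adenine nucleotide and glycogen metabolism. Of 13319 other probe sets with 1 gene name, 33 had an r above 0.9, and the median r was -0.015. The 5 highest were a pair of probe sets of AMPD1, the AMP deaminase of muscle (r = 0.961 and 0.958), AK1, an adenylate kinase (0.960), PHKG1, the catalytic subunit of muscle phosphorylase kinase (0.958), and PYGM, the glycogen phosphorylase of muscle (0.957). Without IM10 replicate 1 and IM5 replicate 6 these r values lay between 0.94 and 0.98. None of these 5 probe sets was called in any comparison.

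Contractile genes of the fibre types moved with the enzymes in opposite directions. The 9 probe sets of fast-fibre contractile genes, among them a pair of ACTN3 with identical values, had a median r of 0.89 with the mean of the 8 enzymes. ACTN3 (fast-fibre alpha-actinin) had an r of 0.95 and MYH1, a fast myosin heavy chain, of -0.31. All 11 probe sets of slow-fibre contractile genes had an r below 0, with a median of -0.69. Among markers of other cells, the median r was -0.51 for endothelium (6 probe sets), -0.44 for fibroblasts and matrix (7), -0.29 for macrophages (12), -0.048 for red blood cells (4), 0.24 for adipocytes (5) and 0.46 for the 1 probe set of Schwann cells. Of the markers of other cells, none was called in the comparisons with group CON. A probe set of KDR, an endothelial receptor, was called in IM10 against IM5 (0.30 ± 0.13, SE). It was dim, above 27.3% of all probe sets, and it lost its call without IM5 replicate 5 or IM10 replicates 1, 3 or 6 (0.22 to 0.38 over the 18 fits). The brighter KDR probe set, with a difference of 0.30 ± 0.16, was not called.

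MYH7, the myosin heavy chain of slow fibres, was chosen for a closer description after its values had been seen. It had lowest, median and highest values of 8.59, 10.53 and 11.58 in CON pigs, 9.93, 10.65 and 12.20 in IM5 pigs, and 9.26, 10.90 and 12.09 in IM10 pigs. The r of MYH7 with single enzymes lay between -0.72 (PGAM2) and -0.45 (GAPDH), and it was below 0 for 8 of 8 enzymes over all pigs and within each group. Median r within groups was -0.78 among CON pigs, -0.78 among IM5 pigs and -0.58 among IM10 pigs. The weakest values were -0.009 (GAPDH) among CON pigs, -0.69 (GPI) among IM5 pigs and -0.20 (TPI1) among IM10 pigs.

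**Figure D5:**
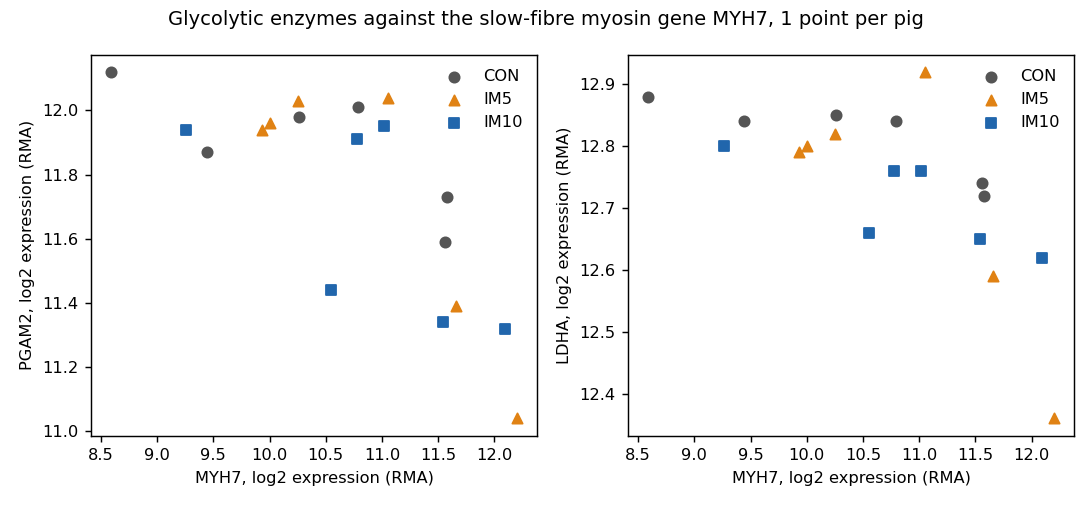
Log2 expression of PGAM2 (left) and LDHA (right) against log2 expression of the slow-fibre myosin gene MYH7, with 1 point per pig. In both panels the pig with the highest MYH7 (IM5 replicate 6, 12.20) has the lowest enzyme value.

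Without the 2 pigs farthest from the median of MYH7, r lay between -0.71 and -0.55. Between groups, 0 of 11 slow-fibre probe sets were called in any comparison, and their median difference was 0.46 in IM10 against CON and 0.43 in IM5 against CON. The differences of greatest size in IM10 against CON were those of MYOZ2, a protein of the Z-disc (0.62 ± 0.48, SE), and TNNC1, the slow troponin C (0.61 ± 0.61). With MYH7 of each pig as a covariate, a choice made after the values had been seen, the median difference of the 8 enzymes was -0.077 in IM10 against CON and -0.048 in IM5 against CON, and PGAM2 differed by -0.12 ± 0.13 (SE) in IM10 against CON. Whether the part of fast and slow fibres in the pieces set the enzyme values was not tested.

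The relation did not hold pig by pig. In IM10 replicate 2, the mean deviation of the enzymes was -0.19, while the median deviation of the slow-fibre probe sets was -0.12 and that of the 12 macrophage probe sets was 0.97. Enzymes and slow-fibre probe sets were both above the mean of the 18 pigs in IM5 replicate 5 (0.19 and 0.21) and IM10 replicate 3 (0.13 and 0.20), and CON replicate 1 had 0.006 for the enzymes beside 0.82 for the slow-fibre probe sets. The part of other cells in the values of IM10 replicate 2 was not tested.

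Beside the 8 enzymes, the steps that feed and control glycolysis were counted by lists. In IM10 against CON, 1.12% of all probe sets were called higher and 1.17% lower. In IM5 against CON these shares were 1.09% and 1.01%, and in IM10 against IM5 they were 1.43% and 1.32%. No probe set of the lists had an adjusted p under 0.05.

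Hexokinases, which trap glucose as glucose 6-phosphate, and the PFKFB enzymes, which set the level of the phosphofructokinase activator fructose 2,6-bisphosphate, had 1 of 10 probe sets called higher and 3 of 10 called lower in IM10 against CON. PFKFB3 had values of 5.36 to 5.68 (median 5.53) in group IM10 against 5.81 to 6.77 (median 6.26) in group CON in one of its probe sets. This probe set differed by -0.73 ± 0.16 (SE; limma, adjusted p = 0.658), and the other probe set of PFKFB3 by -0.67 ± 0.18 with overlapping groups. Both were called in each of the 18 fits without 1 pig.

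PFKFB4 differed by -0.38 ± 0.14 (SE) in IM10 against CON. It was called in each of the 18 fits without 1 pig but not by the methods' t-test. HK2, the hexokinase induced by insulin in muscle, was higher by 0.35 ± 0.16 (SE), and it kept its call in 8 of the 18 fits without 1 pig. It lost it without CON replicates 2, 3, 5 or 6, IM5 replicates 2 or 3, or IM10 replicates 2, 3, 4 or 6, with values between 0.25 and 0.41 over all 18 fits. Of the 10 other alternatives, 4 did not call it, namely the replicate number as a block, a common median of the arrays, array weights and the MYH7 covariate.

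In IM5 against CON, both probe sets of PFKFB3 were called lower (-0.49 and -0.45), and HKDC1, a hexokinase-like gene of low signal, was called higher (0.39 ± 0.095, SE). The second of the PFKFB3 values lost its call without CON replicate 2, IM5 replicate 1 or IM5 replicate 6, at -0.32 in the weakest case, and by the methods' t-test. In IM10 against IM5, 0 of 10 were called. The r of both PFKFB3 probe sets with the mean of the 8 enzymes was 0.53 and 0.54.

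Of the other isoenzymes of the same steps, such as LDHC and ALDOC, 6 of 14 genes had a probe set. In IM10 against CON 1 of these 7 probe sets was called, for LDHC, the testis form of lactate dehydrogenase, at -0.72 ± 0.21 (SE). Its signal was dim, above 17.6% of all probe sets, and the second LDHC probe set, dimmer still, differed by 0.087. In IM5 against CON the first was called at -0.46 ± 0.21 (SE), and it lost this call without CON replicates 1 or 5 or IM5 replicates 2, 5 or 6 (-0.56 to -0.33 over all 18 fits), by the methods' t-test and with the MYH7 covariate. In IM10 against IM5, 0 of 7 were called.

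Of 19 probe sets for glycogen breakdown and synthesis, 1 was called in each comparison with group CON. This was GBE1, the branching enzyme of glycogen synthesis, with a difference of 0.43 ± 0.17 (SE) in IM10 and 0.39 ± 0.17 in IM5. In IM10 the call was lost without CON replicates 2 or 3 or IM10 replicate 1, with differences of 0.35 to 0.53 over the 18 fits. In IM5 it was lost without CON replicates 2 or 3 or IM5 replicates 1 or 6, with differences of 0.30 to 0.50, and by the methods' t-test. The r of GBE1 with the mean of the 8 enzymes was -0.70, and 0 of 19 probe sets were called in IM10 against IM5.

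Of 18 probe sets for the fate of pyruvate and lactate, among them a pair of PDHB with identical values, 0 were called in IM10 against CON. The differences of greatest size were those of PDK4, an inhibitory kinase of pyruvate dehydrogenase (-0.60 ± 0.58, SE), and SLC16A7, a monocarboxylate transporter (0.32 ± 0.29). In IM5 against CON, PDK1 of the same kinase family was called lower (-0.28 ± 0.12), and this call was lost without CON replicate 5, IM5 replicate 5 or IM5 replicate 6 (-0.32 to -0.19 over the 18 fits) and with the MYH7 covariate. In IM10 against IM5, 0 of 18 were called.

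For glucose entry, 0 of 9 probe sets were called in each comparison, and SLC2A4, the insulin-responsive glucose transporter, differed by 0.007 ± 0.14 (SE) in IM10 against CON. The differences of greatest size in this list were 0.25 ± 0.15 for TBC1D1 and -0.19 ± 0.14 for AKT2, both of which act in the signalling that moves this transporter. Among the gluconeogenic bypass enzymes 0 of 6 were called, and FBP2, the fructose bisphosphatase of muscle, differed by -0.45 ± 0.31 and PC, pyruvate carboxylase, by -0.16 ± 0.18. FBP2 varied with the 8 enzymes over the pigs (r = 0.90).

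Of 14 transcription factors known to act on glycolytic genes, 2 were called lower in IM10 against CON. MLXIP, a glucose-sensing factor of muscle, differed by -0.30 ± 0.11 (SE) and varied with the 8 enzymes (r = 0.83), and it lost its call without CON replicate 2 (-0.36 to -0.25 over the 18 fits) and with the MYH7 covariate. MYC differed by -0.29 ± 0.13 in IM10 and by -0.52 ± 0.13 in IM5. The first of these calls was lost without CON replicates 1, 2, 4 or 6 or IM10 replicates 1, 3, 5 or 6 (-0.39 to -0.21), and it was not made by the methods' t-test or with the replicate number as a block. The call in IM5 was made in each of the 18 fits and in each of the 10 other alternatives. In IM10 against IM5, ESRRG was called lower (-0.42 ± 0.19), and it lost this call without IM5 replicates 1, 5 or 6 or IM10 replicates 2, 4 or 5 (-0.54 to -0.30). ESRRG was also not called by the methods' t-test, in a fit of these 2 groups only or with array weights.

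Fast-fibre contractile genes (9 probe sets) and energy buffers such as AK1 and AMPD1 (5 probe sets) had 0 calls in all 3 comparisons. In IM10 against CON, the differences of greatest size were -0.21 ± 0.27 (SE) for PVALB and -0.11 ± 0.13 for MYBPC2 among the first, and -0.20 ± 0.17 for AK1 and -0.18 ± 0.16 for AMPD1 among the second. The median difference was -0.085 for the fast-fibre genes and -0.17 for the energy buffers, beside -0.14 for the 8 enzymes.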

How the data were processed

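The deposited values are log2 expression values that the authors made with the Affymetrix Expression Console by RMA, which corrects background, normalises between arrays and summarises the probes of a set. The software version is not given in the sources used here. The arrays were Porcine Gene 1.0 ST arrays, and the values were used as deposited. RNA integrity numbers averaged 7.72 ± 0.41 (SD) over the 18 arrays. The number of arrays limits the precision, and no batch is named in the labels.

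Gene names came from the platform annotation, in which 13327 probe sets had 1 name, 357 several and 11704 none, and 12874 of the single names matched a current gene record. The RefSeq table places TPI1 and GAPDH on the same chromosome with 23 annotated genes between them.

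The 3 group means were fitted to all 18 arrays together with limma 3.58.1 in R 4.3.3, with Benjamini-Hochberg adjustment over all 25388 probe sets, and P-values come from limma unless the methods' t-test is named. Correlations over the 18 pigs used values with group means removed. Named were the members, each called probe set of a list, and in lists without a call in IM10 against CON the 2 largest differences. The reference genes of the muscle qPCR and the 5 probe sets most like the members were also named. SLC2A4, MYH7, ACTN3 and MYH1 were named after their values had been seen. The members and lists were chosen with earlier results of these data known. Alternatives were the methods' t-test, a fit of 2 groups only, a replicate block, leaving out the dimmest 30% of probe sets, quantile normalization, a common median, array weights, a trended and robust prior, averaged probe sets of a gene and leaving out each pig. The MYH7 covariate, and all alternatives for genes outside the members, were added after the values had been seen. The fit was tested on simulated data drawn independently for each probe set. They do not hold the correlation between probe sets seen here, so the calls draw no support from that test. Plots used Python 3.11.15, numpy 2.4.6, pandas 2.3.3 and matplotlib 3.10.9.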

Additional observations from a re-analysis of the deposited data

How the results depend on the processing

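Some alternatives could change the call of an enzyme but not its difference, so that its direction was fixed. These were the methods' t-test, the fit of 2 groups only, the replicate block, the dimmest 30% left out and the trended and robust prior. Averaged probe sets, and leaving out a pig of the third group, also left it unchanged. Over 28 alternatives, 222 of 224 differences of the 8 enzymes in IM10 against CON kept their direction and their side of the call. The exceptions were GAPDH, at -0.001 after quantile normalization, and PKM, called at -0.27 without CON replicate 6, so that the count of called enzymes was 0 to 1 over the fits without 1 pig. In IM5 against CON, 222 of 224 kept both, and GPI turned to 0.0497 without IM5 replicate 6 (-0.1423 to 0.0497 over the fits without 1 pig) and to 0.0005 with the MYH7 covariate. In IM10 against IM5, 206 of 224 kept both, and all 18 reversals came from fits without 1 pig: GPI spanned -0.1547 to 0.0373, TPI1 -0.164 to 0.0003, PGK1 -0.1427 to 0.0233, ENO3 -0.0897 to 0.05 and LDHA -0.0757 to 0.0363. The cause was not tested. Same-numbered pigs had correlations of deviations between -0.12 and 0.31, and 5 of 18 pairs were over 0.1. The pairs of replicate 1 had 0.305 (IM10 with CON), 0.222 (IM5 with CON) and 0.302 (IM10 with IM5). Replicate 6 had 0.236 for IM10 with CON. Whether pigs of the same number shared a source of variation was not tested. With a replicate block, 0 of 8 enzymes were called in each comparison, although PGAM2 and PKM had a P under 0.05 in IM10 against CON (0 of 8 without the block) at fold changes under 1.2. Calls over the whole array were 354, 282 and 394 without the dimmest 30% of probe sets (582, 532 and 698 with them, in IM10 against CON, IM5 against CON and IM10 against IM5), where fewer probe sets were tested, and 351 by the methods' t-test in IM5 against CON. With 6 pigs per group, the ends of the 95% intervals of single enzymes lay up to 0.585 log2 units from 0, and pens could not be entered in any fit.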
